A study of Mus musculus with 25 samples.

Results

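The lysosome is the compartment in which cells digest proteins, glycans and lipids that arrive by endocytosis and autophagy. Its soluble hydrolases work at acid pH, which the vacuolar proton pump (V-ATPase) maintains across a membrane lined with heavily glycosylated proteins, and the transcription factor TFEB is known to drive many of the genes concerned through a short promoter element called CLEAR. Lysosomes matter in the heart, where inherited loss of acid alpha-glucosidase (Gaa), alpha-galactosidase A (Gla) or the membrane protein Lamp2 causes cardiomyopathy in humans. The transcripts of 37 lysosomal genes were followed in neonatal mouse cardiac myocytes, among 19938 genes that the array names with a probe set of their own. The genes were 8 proteases, 9 enzymes of glycan breakdown, 3 enzymes of lipid breakdown, 4 soluble cofactors, 7 membrane proteins, 5 parts of the proton pump and Tfeb itself. They were chosen by name as textbook members of the compartment, with earlier results of these data known. Each was read from the probe set annotated to that gene alone. The one with the highest mean over the 25 arrays was taken where there were several such probe sets. All 37 were found, and each had 1 such probe set.

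Cultures came from TG mice, which overexpress the Hairy-related repressor CHF1/Hey2 in the myocardium from the mlc2v promoter, and from WT mice. RNA was taken from 7 cultures of TG and 7 of WT myocytes that had received 20% fetal bovine serum, a hypertrophic stimulus, for 24 hours, and from 6 cultures of TG and 5 of WT myocytes in serum-free medium. Each culture had 1 Affymetrix Mouse Gene 1.0 ST array, and no sample of the living heart was included. The methods call the cultures independent without stating whether litters were shared, and a p here covers only the variation among them. The values are RMA intensities on the log2 scale, where a difference of 1 is a doubling of signal. Precision is limited by the number of arrays, as intensities carry no count of reads.

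Hey2, the transgene, averaged 8.71 ± 0.53 in TG and 6.89 ± 0.25 in WT myocytes with serum (log2, SD, n = 7 each), and 7.81 ± 0.62 in TG (n = 6) and 6.23 ± 0.11 in WT myocytes (n = 5) without serum, with no overlap of the arrays in either set. The 14 cardiac myocyte markers had mean log2 values of 10.49 to 12.18 per array over both serum sets. The 17 macrophage markers stood at 5.14 to 6.86 and the 13 endothelial markers at 5.39 to 6.80. The 15 fibroblast markers stood at 8.23 to 9.45 and 8 smooth muscle and pericyte markers at 8.27 to 8.88. The 11 epicardial and mesothelial markers stood at 6.89 to 8.25. The arrays with and without serum lay on different scales. The SD over the probe sets of an array had a median of 2.57 with serum and of 2.12 without, so the genotypes were compared within each serum set, and serum was described only by the rank of a gene within its array. In cultures, fewer cells of a type and less RNA per cell cannot be told apart.

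The lysosomal probe sets were bright in all 4 groups. On average over the 25 arrays, 19 of the 37 ranked above the 90th percentile of the named genes of their array and 29 above the 80th, and the median gene stood at 90.7. Ctsd, the aspartic protease cathepsin D, ranked at 99.9, and Psap, the precursor of the saposins that present sphingolipids to their hydrolases, at 99.7. Only Ctsh, the aminopeptidase cathepsin H, ranked below the middle of the array, at 38.7 with a log2 value of 4.46 to 5.86. Probe sets differ in how strongly they hybridize, so these ranks do not order the genes by transcript amount.

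RefSeq promoters, from 250 bases before to 50 bases after the start on GRCm38.p6, were found for 31 of the 37 genes. The 6 without one were Asah1, Atp6v1b2, Atp6v1h, Ctsb, Ctsh and Npc1. The 6-base E-box CACGTG, which lies at the core of the CLEAR element and is also a known binding sequence of Hairy-related repressors, was present in 13 of the 31 (41.9%), against 8.09% of 27025 mouse genes with a promoter in the same table. Its extension TCACGTGA was in 7 (22.6%, against 1.12%), and the same 8 bases with a further G before and C after them were in 1, Cln3 (3.2%, against 0.37%). Among the 15563 genes with a promoter that the array names, the shares were 9.52% for CACGTG, 1.53% for TCACGTGA and 0.527% for the longest motif. Each of these motifs reads the same on both strands, and the longer ones contain the shorter. A match is a description of the letters and no evidence of binding. Many of these genes are already known to be driven through CLEAR. A higher share among them was therefore anticipated by the choice of motif and is no independent result. The 7 promoters with TCACGTGA are shown around their first match, which is in capitals, because their genes span the protease, glycan, membrane and pump groups described next. Ctsa lies on the plus strand at chr2:164833720-164833777, Ctsd on the minus strand at chr7:142387909-142387966, Gla on the minus strand at chrX:134601216-134601255, Mcoln1 on the plus strand at chr8:3500433-3500490, Cln3 on the minus strand at chr7:126583341-126583398, Atp6v1a on the minus strand at chr16:44139374-44139431 and Atp6v0d1 on the minus strand at chr8:105566051-105566108.
Ctsa: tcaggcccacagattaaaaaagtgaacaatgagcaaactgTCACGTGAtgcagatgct
Ctsd: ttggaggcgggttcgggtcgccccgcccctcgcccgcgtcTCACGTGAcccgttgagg
Gla: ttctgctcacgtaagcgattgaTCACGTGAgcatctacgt
Mcoln1: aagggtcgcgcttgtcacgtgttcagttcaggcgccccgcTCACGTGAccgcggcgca
Cln3: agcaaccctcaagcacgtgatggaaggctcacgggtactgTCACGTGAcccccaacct
Atp6v1a: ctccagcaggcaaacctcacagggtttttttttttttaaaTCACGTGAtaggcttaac
Atp6v0d1: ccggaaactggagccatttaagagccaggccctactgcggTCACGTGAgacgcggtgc
The match began 13 bases before the start in Ctsa, 99 in Ctsd, 228 in Gla, 46 in Mcoln1, 122 in Cln3, 132 in Atp6v1a and 4 in Atp6v0d1. A gene can have several promoters (32851 for the 27025 genes), and a match in any of them was counted. For Ctsa, Cln3 and Atp6v1a the start used lay inside the annotated span of the gene and not at its outer end. Lamp1, which codes for a main glycoprotein of the lysosomal membrane, had no TCACGTGA but held CACGTG 4 times between 61 and 15 bases before its start. The other genes with CACGTG alone were Ctsl, Gaa, Glb1, Naglu and Sgsh, and Tfeb had none in this window.

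To ask whether CHF1/Hey2 altered the lysosomal genes in stimulated cells, TG myocytes were compared with WT myocytes with serum. Of the 37 genes, 0 passed limma's test at a Benjamini-Hochberg adjusted p under 0.05, where 3 of all 35557 probe sets (0.00844%) did. An unadjusted p under 0.05 was reached by 2 genes, Gla and Tfeb, or 5.4%, which is below the 10.7% of all probe sets. Gla was lower in TG myocytes, as 6.31% of probe sets were at such a p, and Tfeb higher, as 4.39% were. No gene had TG and WT arrays that did not overlap, as 0.256% of probe sets had. The differences were small, from -0.27 to 0.29 on the log2 scale with a median of -0.046, against a median of -0.016 over all named genes. The 95% interval of the difference lay within 0.5 of zero for 36 genes and within 0.3 for 30, so that changes beyond these sizes were outside the intervals of most genes.

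Gla encodes alpha-galactosidase A, which removes terminal galactose from glycosphingolipids. Its log2 values in TG myocytes with serum were 7.82 at the lowest, 7.85 at the median and 8.34 at the highest, against 8.19, 8.27 and 8.49 in WT myocytes. In TG myocytes 4 arrays (replicates 2, 3, 4 and 7) lay between 7.82 and 7.85, below every WT array, and the other 3 lay between 8.24 and 8.34, within the WT range. The means were 8.03 ± 0.23 in TG and 8.30 ± 0.11 in WT myocytes (SD, n = 7 each), a log2 difference of -0.27 (SE 0.095), or 0.828 of the WT level, with an adjusted p of 0.355 in limma. The same 4 TG arrays differed from the other 3 in more than Gla. Their cardiac myocyte marker means were 12.06 to 12.18, against 11.04 to 11.77 in the other 3, and their Hey2 values were 8.84 to 9.36, against 7.94 to 8.42. Their endothelial marker means were 5.79 to 5.99, against 6.31 to 6.71, and their epicardial and mesothelial marker means 7.63 to 7.68, against 7.97 to 8.05. Marker means overlapped for fibroblasts (8.65 to 8.92, against 8.78 to 9.32), macrophages (6.06 to 6.56, against 6.14 to 6.86) and smooth muscle (8.73 to 8.88, against 8.70 to 8.82). Of the WT arrays with serum, replicates 2 and 6 had the highest myocyte (11.91 and 11.89) and lowest endothelial means (6.06 and 6.12). Their epicardial and mesothelial means were 8.05 and 8.01. The part of cell composition or transgene level in the Gla values was not tested. Without the 3 arrays of lowest myocyte marker signal (TG serum replicate 6 and WT serum replicates 3 and 4), the Gla difference was -0.30. This setting was chosen after seeing the data. TG serum replicate 6 is 1 of the 3 TG arrays with higher Gla, so leaving it out lowers the TG mean by itself. The value is therefore no test of cell composition.

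Tfeb, the regulator of the set, had the largest difference in the other direction. Its log2 values were 7.28 at the lowest, 7.63 at the median and 7.91 at the highest in TG myocytes with serum, and 7.04, 7.27 and 7.61 in WT myocytes. The ranges overlapped, and 4 of the TG arrays exceeded the highest WT array. The means of 7.62 ± 0.25 in TG and 7.33 ± 0.24 in WT myocytes (SD, n = 7 each) gave a log2 difference of 0.29 (SE 0.12), or 1.23-fold, with an adjusted p of 0.430 in limma. The TG arrays above the WT range were again replicates 2, 3, 4 and 7, with the marker and Hey2 values just given. All 14 cardiac myocyte markers had positive differences in this comparison, with a median of 0.35. Without the 3 arrays of lowest marker signal, a setting chosen after seeing the data, the difference of Tfeb was 0.29. Its unadjusted p no longer fell under 0.05 in that setting.

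**Figure D1:**
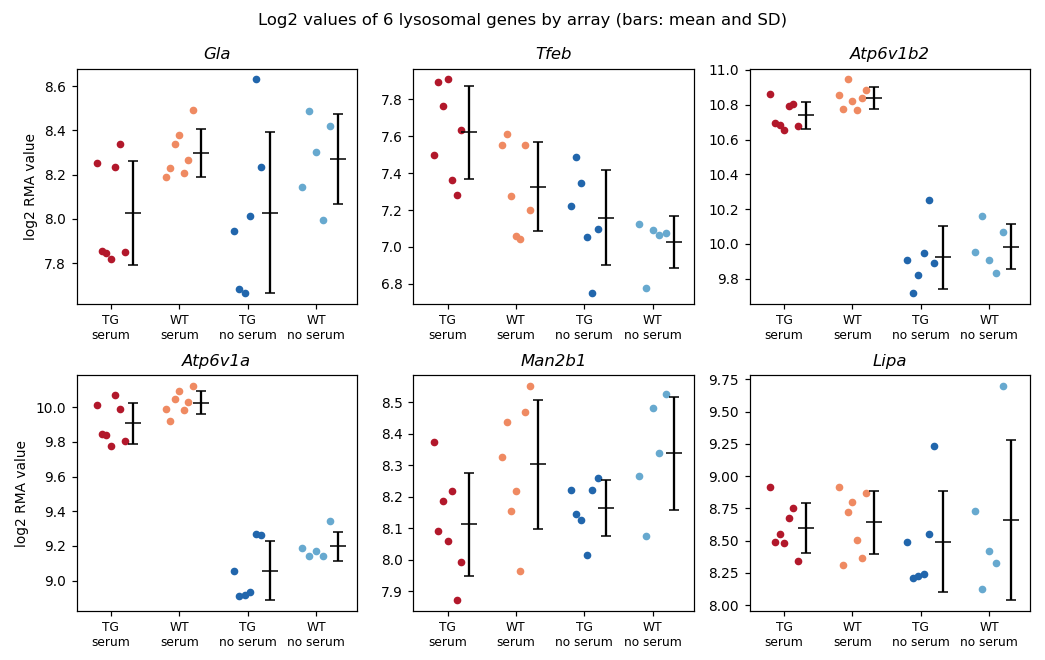
Log2 RMA value (vertical axis) of Gla, Tfeb, Atp6v1b2, Atp6v1a, Man2b1 and Lipa in each array, 1 point per culture, with the mean and SD beside each group (n = 7 TG and 7 WT with serum, 6 TG and 5 WT without). The TG arrays of Gla with serum fall into 4 near 7.85 and 3 near 8.3, and Lipa has a high array of 9.70 in WT and of 9.23 in TG myocytes without serum.

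All 5 proton pump genes had negative log2 differences with serum, with a median of -0.081, and none passed the test. Over all 19938 named genes, 11053 were negative as well. The 13 other pump subunits measured did not share the direction, with 7 negative, 6 positive and a median of -0.0041. Atp6v1b2 and Atp6v1a encode the B and A subunits of the ring that hydrolyzes ATP. Atp6v1b2 had log2 values of 10.66 at the lowest, 10.69 at the median and 10.86 at the highest in TG myocytes, and 10.77, 10.84 and 10.95 in WT myocytes, a difference of -0.10 (SE 0.050, limma adjusted p = 0.486). Atp6v1a had 9.78, 9.85 and 10.07 in TG and 9.92, 10.03 and 10.12 in WT myocytes, a difference of -0.12 (SE 0.058, limma adjusted p = 0.487). For both genes 4 of the 7 TG arrays, again replicates 2, 3, 4 and 7, lay below the whole WT range and the others within it. For the rest of the 5, the differences were -0.081 for Atp6v0d1, -0.049 for Atp6v1h and -0.015 for the accessory protein gene Atp6ap1. Atp6v0d1 encodes part of the membrane sector that passes the protons, and Atp6v1h a regulatory subunit. When each array was centred on its median, 3 of the 5 stayed negative, while Atp6v1h and Atp6ap1 moved to 0.00067 and 0.035.

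Among the glycan enzymes, Man2b1, the lysosomal alpha-mannosidase, came next to Gla. It had log2 values of 7.87 at the lowest, 8.09 at the median and 8.37 at the highest in TG myocytes with serum, and 7.96, 8.33 and 8.55 in WT myocytes, and the ranges overlapped widely (difference -0.19, SE 0.097, limma adjusted p = 0.50). The other 7 lay between -0.11 for Hexa, the alpha chain of beta-hexosaminidase, and 0.062 for the sialidase gene Neu1. Gaa, which digests glycogen, averaged 9.10 ± 0.066 in TG and 9.14 ± 0.13 in WT myocytes, and Glb1, the lysosomal beta-galactosidase, averaged 8.26 ± 0.071 in TG and 8.25 ± 0.073 in WT myocytes (SD, n = 7 each).

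Proteases, lipid enzymes and cofactors gave small values with serum in both directions. Of the 8 proteases 4 had positive and 4 negative differences, from -0.14 for Ctsl to 0.091 for Ctsh. Ctsd averaged 12.88 ± 0.057 in TG and 12.94 ± 0.084 in WT myocytes, and Ctsb, cathepsin B, averaged 10.86 ± 0.17 in TG and 10.83 ± 0.25 in WT myocytes (SD, n = 7 each). The lipid enzymes Asah1 (acid ceramidase), Lipa (acid lipase, which frees cholesterol and fatty acids) and Ppt1 (a thioesterase that takes palmitate from proteins) had differences of -0.065, -0.040 and 0.00055. Of the cofactors, Gm2a, which lifts ganglioside GM2 to its hydrolase, had 0.090, and Npc2, which hands cholesterol to the membrane protein Npc1, had -0.095. Grn, the progranulin gene, had -0.018 and Psap -0.069.

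The membrane proteins had differences of -0.090 to 0.053 between the genotypes with serum. Lamp1 averaged 11.48 ± 0.034 in TG and 11.53 ± 0.067 in WT myocytes, and Lamp2, which is needed for fusion with autophagosomes, averaged 10.21 ± 0.072 in TG and 10.15 ± 0.11 in WT myocytes (SD, n = 7 each). Mcoln1, the cation channel of the lysosomal membrane, had a difference of -0.026, and Scarb2, which carries beta-glucocerebrosidase to lysosomes, had 0.021. The largest differences of the group were those of the cholesterol transporter gene Npc1 (-0.090) and of Cln3 (-0.085), the gene of juvenile Batten disease, and Cd63, a tetraspanin, had -0.010. None passed the test.

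**Figure D2:**
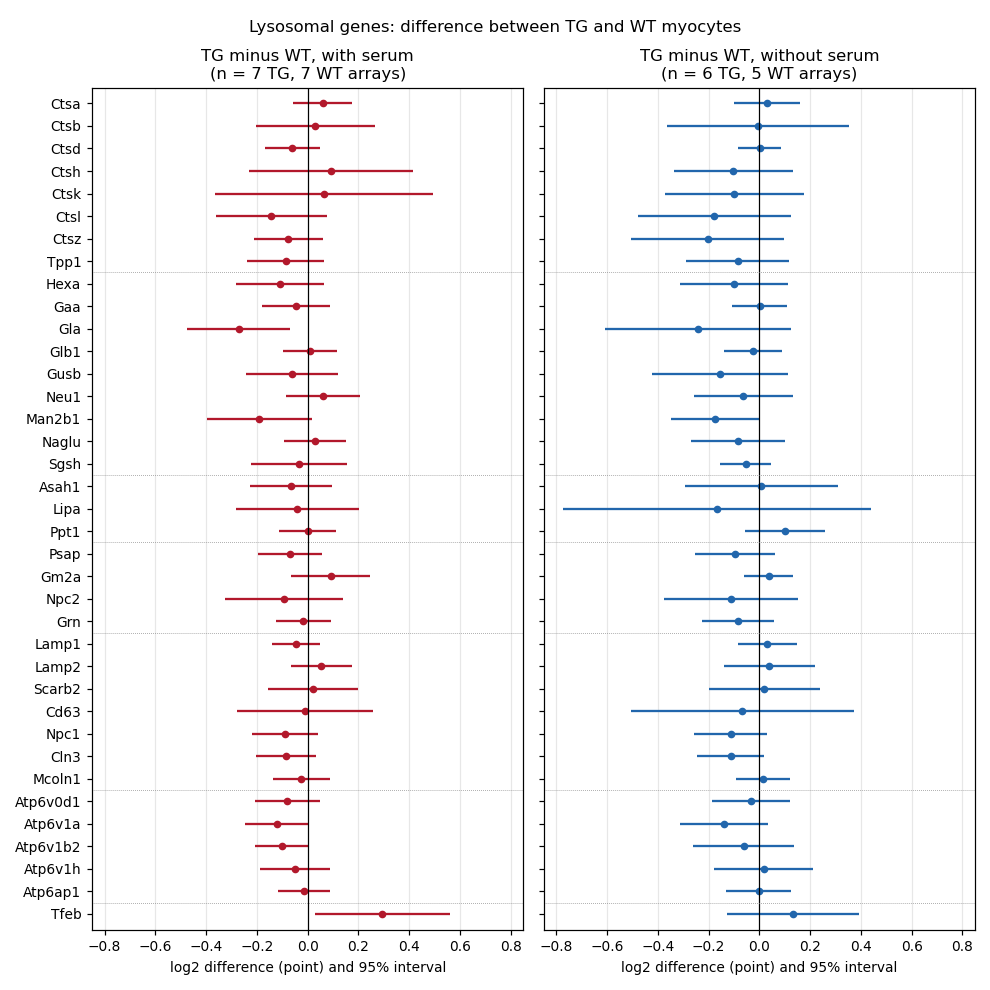
Log2 difference between TG and WT myocytes (horizontal axis, point) with its 95% interval from limma (line) for each of the 37 genes, grouped by role, with serum on the left (n = 7 TG and 7 WT) and without serum on the right (n = 6 TG and 5 WT). Most points lie slightly left of zero, and the intervals of Gla and Tfeb with serum and of Man2b1 without serum exclude zero before adjustment.

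The same comparison without serum tested the lysosomal genes in unstimulated myocytes. Again 0 of the 37 passed the adjusted test, as did 0 of 35557 probe sets (0%). Hey2 itself, with a log2 difference of 1.58 and no overlap, had an adjusted p of 0.853 in limma here, so that a count of 0 does not show that no gene differed. By the unadjusted p, 1 gene, Man2b1, was under 0.05, where 5.64% of all probe sets were. It was lower in TG myocytes, as 3.33% of probe sets were, and 2.31% were higher. None had arrays without overlap, against 0.402% of probe sets. The differences ran from -0.24 to 0.13 with a median of -0.064, against -0.0083 over all named genes. Spread was wider than with serum, and the 95% interval lay within 0.5 of zero for 33 genes and within 0.3 for 22.

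Man2b1 had log2 values of 8.01 at the lowest, 8.18 at the median and 8.26 at the highest in TG myocytes without serum, against 8.27, 8.08, 8.48, 8.34 and 8.53 in WT replicates 1 to 5. The 6 TG arrays stood below 4 of the WT arrays, and WT replicate 2 lay among them. The means were 8.16 ± 0.089 in TG (n = 6) and 8.34 ± 0.18 in WT myocytes (n = 5), a difference of -0.17 (SE 0.079, limma adjusted p = 0.878). The unadjusted p of Man2b1 no longer fell under 0.05 when any of TG replicates 1 to 5 or WT replicates 1, 3, 4 or 5 was left out.

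The next smallest p values belonged to a pump subunit, membrane proteins and a protease, and all of them overlapped between the genotypes. Atp6v1a had log2 values of 8.91 at the lowest, 8.99 at the median and 9.27 at the highest in TG myocytes without serum, and 9.19, 9.14, 9.17, 9.14 and 9.34 in WT replicates 1 to 5 (difference -0.14, SE 0.079, limma adjusted p = 0.887). In 4 of the 6 TG arrays it lay below every WT array, and replicates 5 and 6 were at 9.27. Cln3 had 7.11, 7.19 and 7.39 in TG myocytes, and 7.25, 7.44, 7.44, 7.26 and 7.26 in the WT arrays (difference -0.11, SE 0.060, limma adjusted p = 0.879).

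Npc1 had log2 values of 8.17 at the lowest, 8.43 at the median and 8.55 at the highest in TG myocytes without serum, and 8.58, 8.46, 8.48, 8.47 and 8.48 in WT replicates 1 to 5 (difference -0.11, SE 0.066, limma adjusted p = 0.887). Ctsz, cathepsin Z, had 9.86, 10.12 and 10.46 in TG myocytes, and 10.35, 10.18, 10.25, 10.14 and 10.82 in the WT arrays (difference -0.20, SE 0.14, limma adjusted p = 0.895). The single WT array at 10.82, replicate 5, lay above all others, and without it the Ctsz difference was -0.086. Gla, the gene with the smallest p with serum, had 7.67, 7.98 and 8.63 in TG myocytes without serum, and 8.14, 8.49, 8.30, 7.996 and 8.42 in the WT arrays, a difference of -0.24 (SE 0.17, limma adjusted p = 0.895). Its highest value of all 25 arrays was in TG replicate 5, and 2 TG arrays, at 7.67 and 7.68, were the lowest.

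Tfeb without serum had log2 values of 6.75 at the lowest, 7.16 at the median and 7.49 at the highest in TG myocytes, and 7.12, 6.78, 7.09, 7.06 and 7.07 in WT replicates 1 to 5, a difference of 0.13 (SE 0.12, limma adjusted p = 0.915). The lowest array of each genotype, TG replicate 5 and WT replicate 2, was also the one with the lowest cardiac myocyte markers, at a mean of 10.49 and 10.53. With serum, WT replicates 3 and 4, with marker means of 10.92 and 10.97, had Tfeb values of 7.27 and 7.06. The share of these markers in the Tfeb values was not tested.

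Across the sets, 19 genes had lower means in TG myocytes with and without serum, 6 had higher means in both, and 12 had opposite signs. No TG effect on the 37 genes passed limma's test of a difference between the serum sets (0.00281% of all probe sets did). In that test 0 genes had an unadjusted p under 0.05 (4.26% of all), the smallest being 0.253 for Ppt1. It subtracts log2 differences across the different scales of the sets, so it cannot show that the TG effect was alike in both. The balance of signs moved with the scaling of the arrays, and in different directions. As deposited 12 of the 37 differences were positive in each set. When each array was centred on its median, which moved the median of all probe sets by 0.049 with serum and 0.031 without, 21 were positive with serum and 15 without, and the median difference was 0.0035 with serum and -0.033 without. With quantile normalization again within each set, 10 were positive with serum and 6 without. Over all named genes, 44.6% were positive with serum as deposited and 61.6% after centring, and 45.2% and 63.0% were positive without serum.

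Some arrays stood apart from the rest of their group without serum. WT replicate 5 had the highest value of its group for 20 of the 37 genes and TG replicate 5 likewise for 20, against 7 or fewer for the other WT arrays and 9 or fewer for the other TG arrays. The share of all named genes that were highest in these arrays was not computed, so the counts are not particular to lysosomal genes. In WT replicate 5, Lipa was at 9.70 against 8.12 to 8.73 in the other WT arrays, and Ctsz, Psap and Grn were also highest there. The same array had the highest macrophage marker mean of all arrays without serum, 6.74 against 5.32 to 6.01 in the other WT arrays. It also had the highest fibroblast marker mean of the arrays without serum, 9.39, and the highest endothelial (5.90) and smooth muscle (8.84) marker means of its group. The fibroblast mean of WT replicate 1 was close, at 9.34, and that array was highest for 2 of the 37 genes. TG replicate 6, with the second macrophage mean of 6.40, had a Lipa value of 9.23 against 8.21 to 8.55 in the other TG arrays.

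TG replicate 5 stood out with other genes. It held the highest values of its group for Gla (8.63), Neu1 (7.58), Tpp1, a tripeptidyl peptidase (10.04), Atp6v0d1 (9.56) and Cd63 (9.03), and its macrophage and cardiac myocyte marker means, 5.14 and 10.49, were the lowest of all 25 arrays. Its fibroblast (9.23) and endothelial (6.00) marker means were the highest of its group. Without this array, 7 genes had an unadjusted p under 0.05 (Atp6v0d1, Atp6v1a, Cln3, Gla, Neu1, Tfeb and Tpp1) and 0 passed the adjusted test, where 7.38% of all probe sets had such a p. Of the 17 macrophage markers, 13 had higher means in TG myocytes with serum (median 0.19) and 15 had lower means without serum (median -0.15), none past the adjusted test. The 15 fibroblast markers had medians of -0.12 with serum and -0.093 without. All 13 endothelial markers were lower in TG myocytes with serum (median -0.20) and 10 of 13 without (median -0.026). Of 11 epicardial and mesothelial markers, 8 were lower with serum (median -0.16), 4 of them at an unadjusted p under 0.05, and 9 were lower without serum (median -0.20). The part of these cells in the lysosomal values was not tested.

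**Figure D3:**
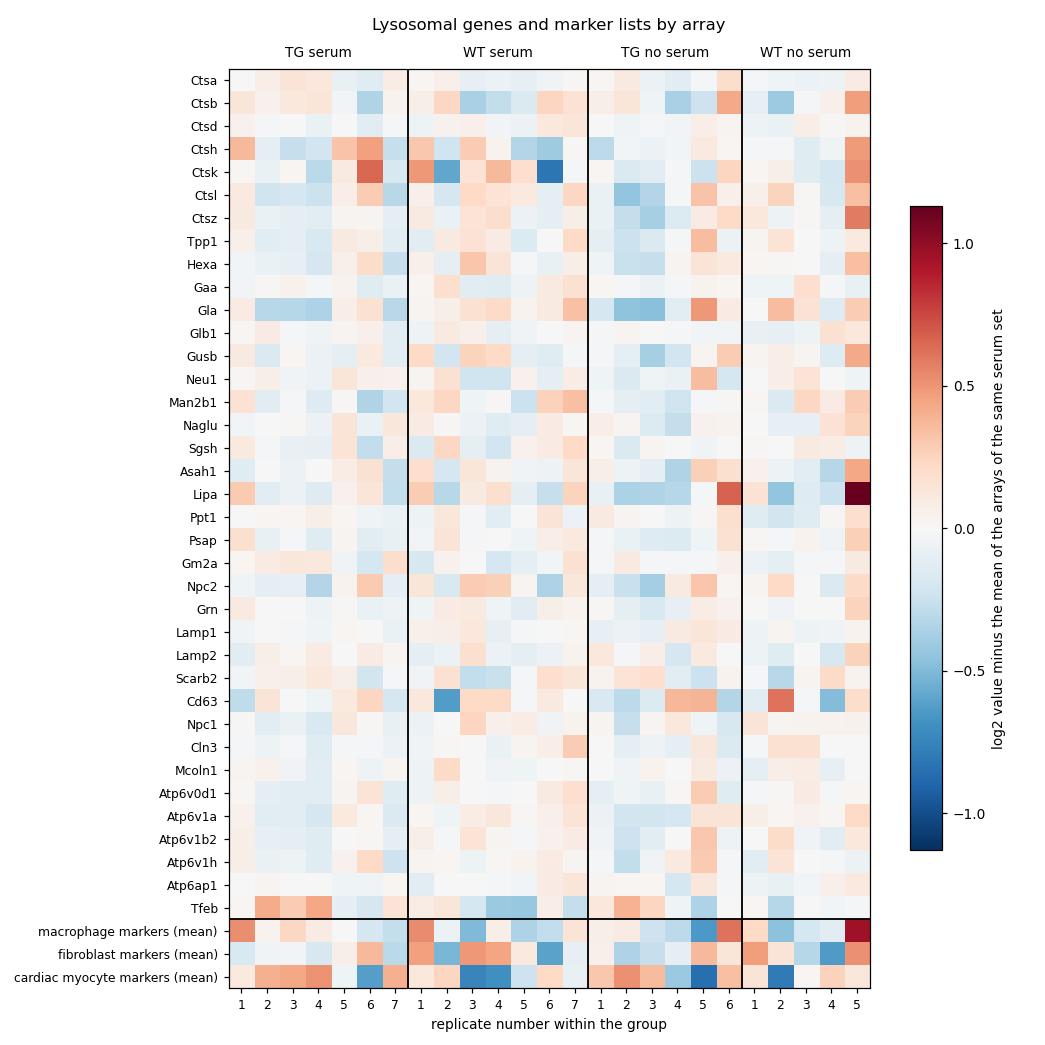
Log2 value of each of the 37 genes (rows) and mean of 3 marker lists (bottom rows) in each of the 25 arrays (columns, by group and replicate number), as the deviation from the mean of the arrays of the same serum set (red above, blue below). WT no serum replicate 5 and TG no serum replicate 5 are red for many genes, and Lipa is reddest in the 2 arrays without serum that have the highest macrophage markers.

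Serum itself was described by the percentile of each gene within its array, since the scale of the 2 sets cannot be told apart from the treatment. In TG myocytes 6 genes were lower in every serum array than in every serum-free array (16.2%, against 19.0% of all named genes) and 3 were higher (8.1%, against 18.0%). In WT myocytes 9 were lower (24.3%, against 19.3%) and 3 higher (8.1%, against 18.5%). The count of higher genes was 6 in TG myocytes without TG no serum replicate 5 and 7 in WT myocytes without WT no serum replicate 5. Leaving out an array can only keep or raise such a count. The shares of all named genes after the same omissions were not computed. Among 7145 genes with a mean log2 value of 7 or more, 13.9% in TG and 14.6% in WT myocytes were lower and 14.1% in TG and 15.3% in WT myocytes were higher, so that the order of the 16.2% of lysosomal genes in TG myocytes turned with the genes it was set against. In both genotypes at once 6 of the 37 were lower, where 14.8% of all named genes were, and 1 was higher, where 13.5% were. The 6 lower genes were Ctsa, which also protects Neu1 and Glb1 from degradation, and Gaa, Glb1, Man2b1, Mcoln1 and Sgsh. The 1 higher gene was Atp6ap1.

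The heparan sulfate sulfatase gene Sgsh and Glb1 stood lowest with serum relative to their rank without it. Sgsh stood at 67.9 ± 2.2 with serum and 77.5 ± 0.98 without in TG myocytes (mean percentile, SD, n = 7 and 6), and at 68.7 ± 2.8 with serum and 78.6 ± 1.0 without in WT myocytes (n = 7 and 5). Glb1 stood at 79.7 ± 0.68 with serum and 87.6 ± 0.43 without in TG myocytes, and at 79.9 ± 0.95 with serum and 88.2 ± 1.2 without in WT myocytes. For both genes the ranges of the serum and serum-free arrays were far apart in each genotype. Man2b1 stood at 77.7 ± 2.3 with serum and 84.4 ± 0.96 without in TG myocytes, and at 80.5 ± 2.7 with serum and 86.6 ± 1.8 without in WT myocytes. Gla stood at 76.5 ± 3.2 with serum and 82.5 ± 4.3 without in TG myocytes, where the arrays overlapped, and at 80.5 ± 1.3 with serum and 85.9 ± 2.4 without in WT myocytes. Mcoln1 stood at 84.4 ± 0.78 with serum and 89.1 ± 0.49 without in TG myocytes, and at 84.9 ± 1.0 with serum and 89.2 ± 0.98 without in WT myocytes. For Man2b1 and Mcoln1 every serum array lay below every serum-free array in both genotypes. The changes with serum were -6.66 percentile points in TG and -6.11 in WT myocytes for Man2b1, -6.01 and -5.40 for Gla, and -4.72 and -4.33 for Mcoln1.

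Ctsh stood highest with serum relative to its rank without it, at 42.7 ± 4.1 with serum and 34.5 ± 2.6 without in TG myocytes, and 40.8 ± 4.2 with serum and 35.5 ± 4.6 without in WT myocytes, where the arrays overlapped. Gm2a stood at 87.6 ± 1.5 with serum and 83.8 ± 0.87 without in TG myocytes, where a serum array lay within the other range, and at 86.8 ± 1.2 with serum and 83.7 ± 0.87 without in WT myocytes. Asah1 stood at 89.1 ± 1.1 with serum and 87.1 ± 2.2 without in TG myocytes, and at 89.8 ± 1.0 with serum and 87.2 ± 2.7 without in WT myocytes, and overlapped in both. Neu1, at 73.5 ± 0.92 with serum and 70.7 ± 2.8 without in TG myocytes and 72.9 ± 2.3 with serum and 71.9 ± 1.3 without in WT myocytes, overlapped in both as well. Atp6v1a stood at 94.5 ± 0.64 with serum and 92.7 ± 1.1 without in TG myocytes, which overlapped, and at 95.3 ± 0.35 with serum and 93.8 ± 0.42 without in WT myocytes, which did not. Over the 37 genes the median change was 0.11 points in TG and -0.012 in WT myocytes, and 21 of 37 in TG and 18 of 37 in WT myocytes had higher mean ranks with serum. A gene at the top of the array can hardly move in rank, and Ctsd stayed between 99.86 and 99.95 in every array.

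**Figure D4:**
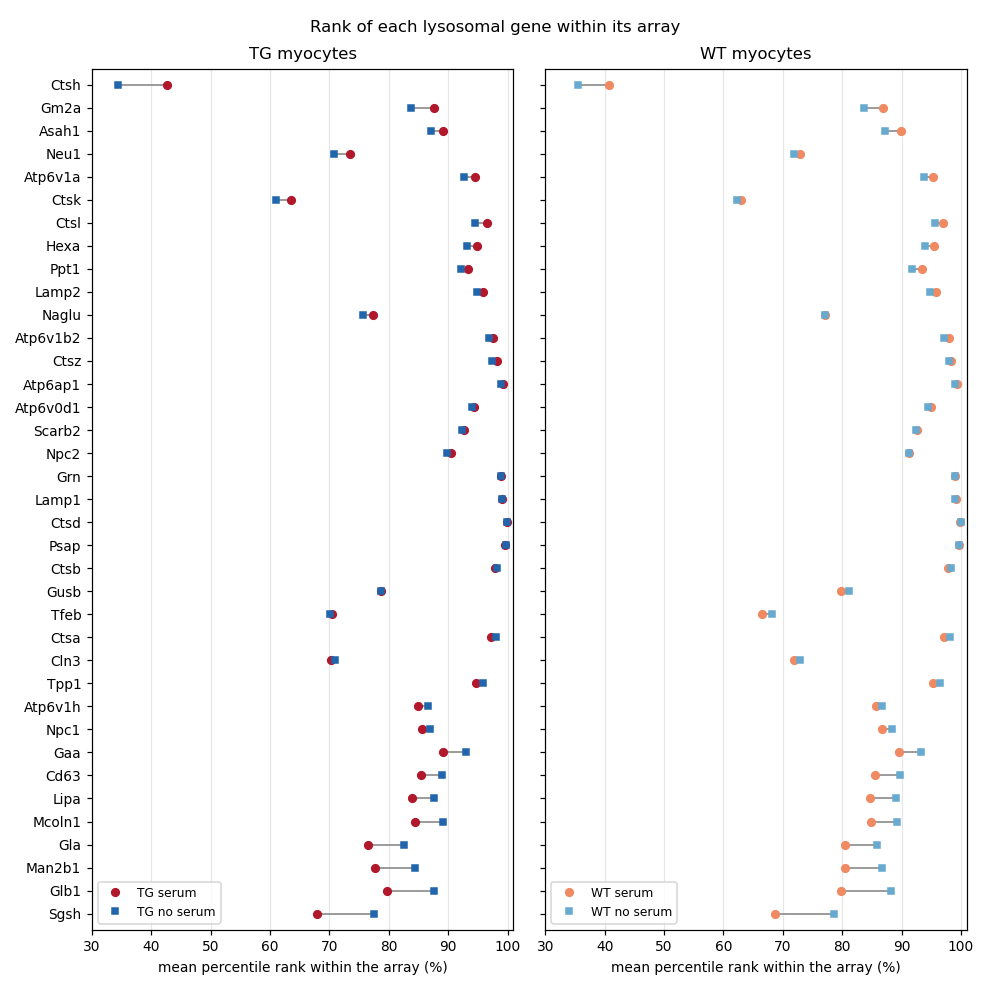
Mean percentile rank within the array (horizontal axis) of each of the 37 genes with serum (circles) and without serum (squares), in TG myocytes on the left and WT myocytes on the right, ordered by the mean change over both genotypes. Sgsh, Glb1, Man2b1 and Gla at the bottom rank lower with serum in both genotypes, and Ctsh at the top, near the 40th percentile, ranks higher.

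The same values were set side by side for genes with and without the E-box. With serum, the median TG minus WT difference was -0.046 for the 13 genes with CACGTG and -0.016 for the 18 with a promoter without it, and without serum it was -0.033 and -0.086. For rank with serum the medians were -0.92 and 0.31 percentile points, with 5 of 13 and 11 of 18 genes higher. These values are descriptions and the differences between them were not tested.

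The genotypes were also compared for related genes of the pathway. Of 122 measured genes on 6 lists of other lysosomal and autophagy genes, 0 passed the adjusted test in limma in either set. With serum 9 were higher and 2 lower in TG myocytes at an unadjusted p under 0.05 (9.02%, against 10.7% of all probe sets), and without serum 5 were higher and 2 lower (5.74%, against 5.64%). The autophagy list held 6 of the 9 higher genes with serum, of 27 measured, where 4.39% of all probe sets were higher with such a p. The members with the smallest p were Atg10, with a log2 difference of 0.31 (limma adjusted p = 0.310), Atg4a, with 0.18 (limma adjusted p = 0.312), and Ulk2, with 0.22 (limma adjusted p = 0.332). Atg10 conjugates Atg12, Atg4a processes proteins of the Atg8 family, and Ulk2 is a kinase that starts autophagy. Without serum 2 of the 27 were higher and 0 lower at such a p, where 2.31% of all probe sets were higher. Their median log2 difference was 0.029. Wipi1 had the smallest p of the 122 genes without serum (log2 difference 0.22, limma adjusted p = 0.853). Its TG arrays all lay above the WT arrays, and 0.402% of probe sets had no overlap. The study names several genes of this list from the same arrays, so that it is not independent evidence of the direction.

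Other lysosomal enzymes, 27 measured, had a median log2 difference of 0.032 with serum and -0.044 without. With serum Ctsf, cathepsin F, averaged 7.58 in TG and 7.87 in WT myocytes, a difference of -0.29 (limma adjusted p = 0.325). Without serum the acid phosphatase genes Acp5 and Acp2 had differences of -0.22 and 0.19 (limma adjusted p = 0.853 for both). The 13 other pump subunits had medians of -0.0041 with serum and 0.0063 without, and 0 had an unadjusted p under 0.05 in either set. The 20 other membrane proteins had medians of -0.038 with serum and -0.037 without, with the nucleoside transporter gene Slc29a3 lowest in p with serum (log2 difference -0.21, limma adjusted p = 0.297). Genes of delivery to lysosomes had 0.022 with serum and 0.0012 without, led by Gnptab, which makes the mannose 6-phosphate tag (log2 difference 0.27 with serum, limma adjusted p = 0.383). Relatives of TFEB and genes of nutrient signaling had 0.037 with serum and -0.0053 without, led by the mTOR activator gene Rheb (log2 difference 0.18 with serum, limma adjusted p = 0.437).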

How the data were processed

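RNA of 25 cultures was hybridized to Affymetrix Mouse Gene 1.0 ST arrays. The deposited values, which the authors made by RMA (Expression Console 1.1), are normalized log2 intensities of 35557 probe sets. Whether the arrays with and without serum were normalized together is not given in the sources used here. Of the probe sets, 21789 name 1 gene, 1621 several and 12147 are unnamed here.

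The members and lists were chosen with earlier results of these data known. The genotypes were compared inside each serum set with limma 3.58.1 in R 4.3.3 (lmFit with 1 mean per group, eBayes), p was adjusted over all 35557 probe sets by the Benjamini-Hochberg method, with 0.05 as the threshold of the adjusted p. The difference of the TG effect between sets came from 1 fit over 25 arrays. Serum was described by percentile ranks within arrays over 19938 genes. Full statistics were given for the 5 members with the smallest p per comparison, since none passed, and for the 5 largest rank changes in each direction. Other members were named because all 37 are described, and the pathway genes named were among the 3 of their list with the smallest p. Motifs were matched in RefSeq promoters. Of 130 pathway genes listed, 122 were measured and the others were not analysed here. Alternatives were the fit over all arrays, quantile normalization again, median centring, dim probe sets left out, averaging over the probe sets of a gene, array weights, a mean-variance trend, a replicate block, and arrays left out. For serum, ranks among all probe sets or among genes with a mean log2 value of 5 or more were also run. Quantile-normalized log2 values and averaged probe sets were run as well. The counts from these other rankings are not given here.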

Additional observations from a re-analysis of the deposited data

Results flagged for a closer look

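Each of the 37 genes was examined in each of the 4 groups for 1 array far from the rest of its group (Dixon's test), and 18 of the 148 combinations had one. Chance alone flags about 1 in 20 such groups, and genes of 1 array are not independent of each other. The causes were not tested.

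WT no serum replicate 5 was the distant array for 5 genes, with log2 values of 5.23 for Ctsh, 9.52 for Hexa, 12.13 for Psap, 11.20 for Grn and 9.34 for Atp6v1a, the values of the nearest arrays being 4.74, 9.20, 11.90, 10.96 and 9.19. The same array had the highest macrophage marker mean without serum, 6.74, and the highest endothelial (5.90) and smooth muscle (8.84) marker means of its group. Its fibroblast marker mean was the highest without serum, 9.39, with WT no serum replicate 1 close at 9.34. In TG no serum replicate 6, with a macrophage marker mean of 6.40, Lipa was at 9.23, against 8.55 in the nearest array. In TG no serum replicate 5, which had the lowest cardiac myocyte marker mean of all arrays (10.49), Neu1 was at 7.58 and Atp6v0d1 at 9.56, against 7.18 and 9.29 in the nearest arrays.

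The remaining arrays differed for 1 or 2 genes each. In TG serum replicate 6, which had the lowest cardiac myocyte markers of its group (11.04), Ctsb was low at 10.50 and Ctsk high at 7.75, and in TG serum replicate 1 Lamp2 was low at 10.06. In WT serum replicate 2 Cd63 was low at 8.11 and Mcoln1 high at 8.86, and in WT serum replicate 7 Cln3 was high at 7.93. In TG no serum replicate 2 Sgsh was low at 7.50. In WT no serum myocytes Npc1 was high at 8.58 in replicate 1, Gaa was high at 9.29 in replicate 3 and Tfeb was low at 6.78 in replicate 2, the array with the lowest cardiac myocyte markers of that group (10.53).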

How the results depend on the processing

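Under every alternative run, 0 of the 37 genes passed the adjusted test in either serum set or for the difference between them. Of the recomputed values, 407 were classed as the same as in the main analysis and 32 as moved. A count was the same if it equalled the main count or stayed within a fixed ratio of it. A median was the same if it moved by less than the spread between cultures. The difference of a single gene was the same if it kept its sign and its side of the adjusted threshold. The median difference with serum, within that spread, changed sign after median centring (0.0035). Leaving out dim probe sets or averaging the probe sets of a gene could not change the difference of any of the 37 genes. Each had 1 probe set, and 0 had a mean log2 value under 5. Only p could move in those settings, so their unchanged differences say nothing on stability. The count of genes with an unadjusted p under 0.05 rested on the processing. Without serum it was 1 in the main analysis, 0 with 1 fit over all 25 arrays, with median centring, with dim probe sets left out and with a mean-variance trend, 2 with quantile normalization again, 4 with array weights, and 6 without WT no serum replicate 2 and TG no serum replicates 4 and 5, the arrays of low cardiac myocyte markers. Leaving out 1 array at a time gave 0 to 7, the 7 without TG no serum replicate 5. Of all probe sets, 5.64% had such a p in the main analysis, 5.22% with quantile normalization again and 7.82% with array weights. In the settings named with 0 genes, 2.66% to 6.56% did. Without the 3 arrays of low markers 9.87% did, and without TG no serum replicate 5 alone 7.38%. With serum it was 2 in the main analysis, 3 with 1 fit over all 25 arrays, 5 with quantile normalization again, 4 with dim probe sets left out, with array weights and with a mean-variance trend, and 1 without WT serum replicates 3 and 4 and TG serum replicate 6, a setting chosen after seeing the data. Leaving out 1 array gave 1 to 5, the 5 without TG serum replicate 1 or 6 (Gla was among them in all 14 runs).

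The median difference was -0.053 to -0.026 with serum and -0.095 to -0.028 without when 1 array was left out. With 1 array left out, 3 to 6 genes in TG and 3 to 7 in WT myocytes were apart and higher-ranked with serum. The main analysis had 3 in each. The 6 came without TG no serum replicate 5 and the 7 without WT no serum replicate 5. Genes apart and lower-ranked numbered 6 to 6 in TG and 9 to 10 in WT myocytes. Leaving out an array can only keep or raise these counts, so they could not fall below the main analysis. By the labels' replicate numbers the cultures did not deviate in pairs, since residuals of same-numbered arrays correlated at -0.36 to 0.062 with serum and -0.45 to 0.15 without. A legend of the study numbers the cultures without serum otherwise, so this check and the block rest on the labels' numbers alone. With a replicate block the count of genes with an unadjusted p under 0.05 was 0 without serum (5.47% of all probe sets) and 2 with serum (8.44%). Values near the lower end of the scale, such as Ctsh, lie close to the array background.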
